A study of Mus musculus with 10 samples.

Results

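Arg1, Arg2, Odc1, Oaz1, Srm, Sms, Sat1, Slc7a1 and Gatm are 9 genes of arginine and polyamine metabolism. They were chosen by name, with earlier results of these data known, and found by matching the versioned mouse Ensembl IDs of the gene tables to symbols. All 9 were among the 47643 gene IDs of each library, and all 9 passed the filter on low counts that left 16208 genes for testing. The RNA came from innate lymphoid cells (ILCs), lymphocytes of tissues that carry no rearranged antigen receptor, which had been sorted from skin of adult mice of the B6 strain. Epidermal ILCs, from the outer epithelium, gave 3 libraries. Dermal ILCs sorted as CCR6+, by a chemokine receptor, gave 2, and dermal ILCs sorted as Sca1+, by the surface protein that Ly6a encodes, gave 2. Subcutaneous ILCs, from the layer under the dermis, gave 3. The labels name no genotype, transgene, treatment or age beyond adult for any group, and they do not say how many animals went into a library.

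Arginine enters cells through cationic amino acid transporters such as Slc7a1 and is split by arginases into urea and ornithine. Odc1 turns ornithine into putrescine, from which Srm makes spermidine and Sms makes spermine. Polyamines are sensed through antizymes such as Oaz1, which bind the Odc1 protein and send it to the proteasome, and are cleared through acetylation by Sat1. Gatm takes arginine in another direction, toward creatine. In mice, type 2 ILCs are known for expressing Arg1 without prior stimulation, and alternatively activated macrophages express it too.

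Library totals ran from 11627222 to 18118544 expected counts. Levels of one gene across groups are in CPM, which divides counts by the TMM-normalised size of the library. On that scale 3 counts stood for 0.149 to 0.258 CPM, depending on the library. Levels of different genes are set side by side only as the deposited TPM, which is per transcript length. The 7 ILC identity markers (Ptprc, Thy1, Il7r, Il2rg, Id2, Gata3 and Rora) were above 0 in every library. They summed to 6057 to 6588 CPM in epidermal libraries, 9590 and 10020 in dermal CCR6+, 12670 and 12090 in dermal Sca1+, and 10130 to 10660 CPM in subcutaneous libraries, so that the epidermal libraries lay under all others. Of the 7, Gata3 and Rora were called lower in epidermal ILCs in all 3 comparisons. Over subcutaneous ILCs they were lower by -1.63 ± 0.187 and -1.32 ± 0.16, with edgeR adjusted p of 0.000184 and 0.000254. In that comparison Il2rg was also called lower (-0.62 ± 0.173, edgeR adjusted p = 0.0289) and Thy1 was called higher (1.18 ± 0.257, edgeR adjusted p = 0.00906). Ptprc, Il7r and Id2 were not called in it (edgeR adjusted p of 0.223, 0.323 and 0.1105). Markers of other cells were present too: 12 macrophage markers summed to between 7.81 and 15.5 CPM in epidermal libraries, 194 and 245 in dermal CCR6+ libraries, 364 and 724 in dermal Sca1+ libraries, and between 4252 and 7974 in subcutaneous libraries. In such bulk samples a smaller number of cells of a type and less RNA per cell cannot be told apart. The labels do not say that replicates came from separate animals, so p-values reflect library-to-library spread alone, and that spread may be technical. Intervals and floors cover counting error only.

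Of the 9 genes, 6 differed among the 4 groups in 1 joint test (Arg1, Arg2, Odc1, Sat1, Slc7a1 and Gatm), where 17.4% of all genes tested did. Each of these 6 was lower in epidermal than in subcutaneous ILCs. Oaz1, Srm and Sms did not pass the joint test. Arg2 no longer passed it without epidermal replicate 2 (edgeR adjusted p = 0.0502) or without subcutaneous replicate 1, 2 or 3 (0.0938, 0.0542 and 0.0539), and Oaz1 passed it without epidermal replicate 1 (0.035). Tests were edgeR's quasi-likelihood tests with Benjamini-Hochberg adjustment over the 16208 genes, a gene was called at an adjusted p under 0.05, and each fold change below is given as log2 ± SE, the SE being derived from the F statistic.

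**Figure D1:**
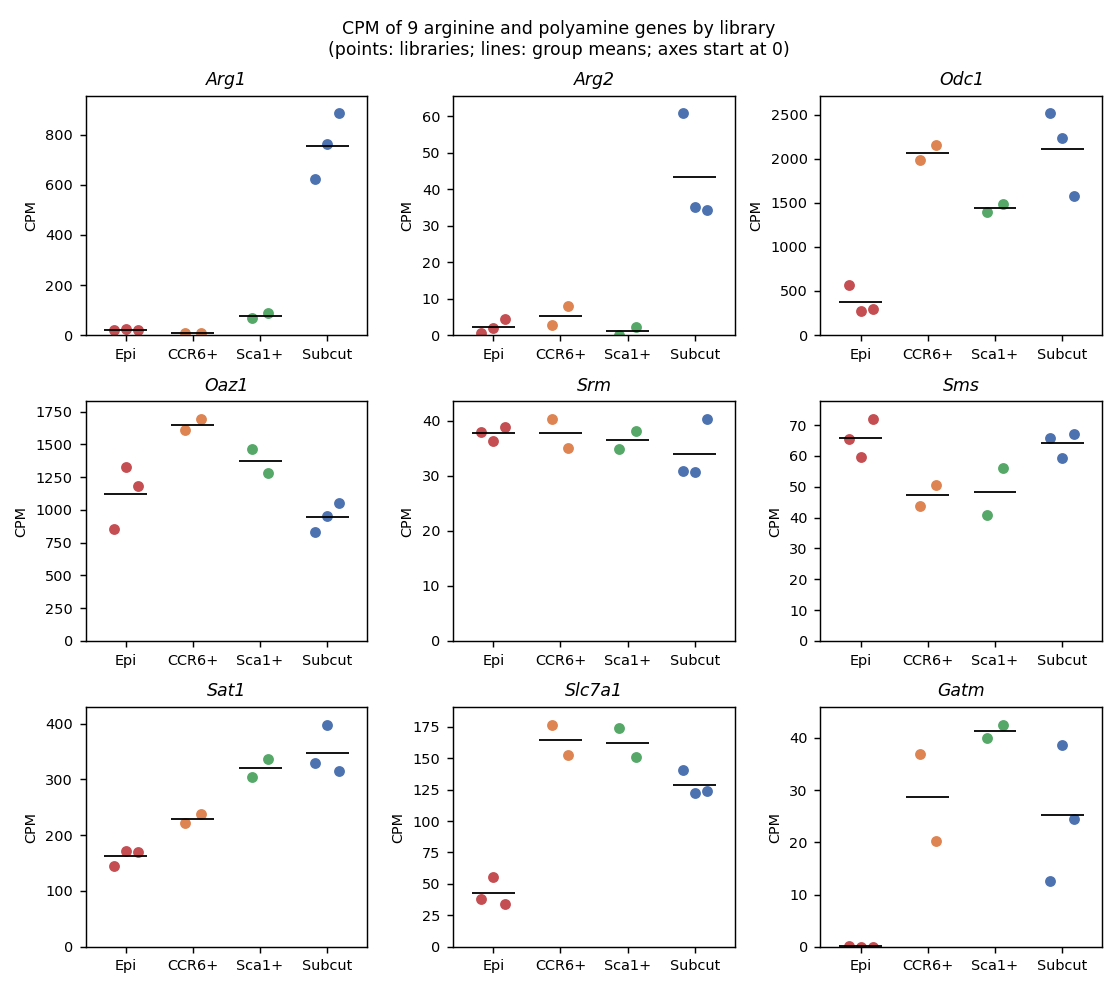
CPM of the 9 genes (y axes, from 0) in epidermal (Epi), dermal CCR6+, dermal Sca1+ and subcutaneous (Subcut) libraries. Points are libraries and lines are group means. Arg1 stood at 622 to 886 CPM in the subcutaneous libraries and at most 87.6 CPM in the others, whereas Odc1, Slc7a1 and Gatm were low in the 3 epidermal libraries and Srm lay between 30.7 and 40.2 CPM in all 10.

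Arg1, the cytosolic arginase (ENSMUSG00000019987.8, chromosome 10, 24915221 to 24927484, minus strand, mm10), was highest in the subcutaneous layer and lowest in dermal CCR6+ cells. It stood at 19.3, 22.9 and 21.1 CPM in the epidermal libraries, 9.82 and 9.57 CPM in the dermal CCR6+ libraries, 67.6 and 87.6 CPM in the dermal Sca1+ libraries, and 622, 763 and 886 CPM in the subcutaneous libraries. No library of one group overlapped with those of another, and Arg1 was the one gene of the 9 called in all 6 comparisons. Within the dermis it was 9.70 ± 0.176 CPM in CCR6+ and 77.6 ± 14.1 CPM in Sca1+ ILCs (SD, n = 2 each), a log2 fold change of -3.00 ± 0.249 (edgeR adjusted p = 0.0017). For dermal Sca1+ over subcutaneous ILCs the log2 fold change was -3.29 ± 0.239 (edgeR adjusted p = 0.000234).

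Epidermal ILCs held an intermediate Arg1 level of 21.1 ± 1.81 CPM (SD, n = 3). That was lower than in subcutaneous ILCs (757 ± 132 CPM, SD, n = 3) by a log2 fold change of -5.17 ± 0.222, with an edgeR adjusted p of 6.7e-07. It was also lower than in dermal Sca1+ ILCs (log2 fold change -1.88 ± 0.207, edgeR adjusted p = 0.000265) but higher than in dermal CCR6+ ILCs (1.12 ± 0.222, edgeR adjusted p = 0.0132). The call against the CCR6+ cells did not hold when only the 2 groups compared were fitted (edgeR adjusted p = 0.164), nor without CCR6+ replicate 1 or 2 (0.0865 and 0.0941). Dermal CCR6+ and subcutaneous ILCs stood furthest apart, with a log2 fold change of -6.29 ± 0.282 (edgeR adjusted p = 3.72e-06).

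Between groups, the Arg1 level moved in part with markers of other cells. Besides the macrophage sums above, 7 simple epithelium markers (Krt8, Krt18, Krt19, Epcam, Cldn3, Cldn4 and Cldn7) summed to between 1400 and 4328 CPM in the subcutaneous libraries, with none at 0, and to between 30.0 and 74.1 CPM in the other 7 libraries, each with at least 1 marker at 0. Of the 12 macrophage markers, between 4 and 8 were at 0 in an epidermal library and none was at 0 in a subcutaneous one. The order did not match in all groups: the dermal CCR6+ libraries had less Arg1 than the epidermal libraries and a higher macrophage marker sum. Within the subcutaneous group the orders differed too. Arg1 stood at 622, 763 and 886 CPM in replicates 1, 2 and 3. The macrophage sums there were 4515, 7974 and 4252 CPM, and the simple epithelium sums 4328, 1400 and 1883 CPM. In each dermal group the library with more Arg1 had the higher macrophage sum. Mast cell markers, 8 in all, summed to 178 to 350 CPM in epidermal libraries, with 5 or 6 of them at 0, 190 and 291 CPM in dermal CCR6+, 491 and 702 in dermal Sca1+, and 347 to 759 CPM in subcutaneous libraries. Kit made up most of the epidermal sums, averaging 250 CPM there, while each other mast cell marker averaged at most 0.04 CPM. Kit averaged 197, 211 and 290 CPM in dermal CCR6+, dermal Sca1+ and subcutaneous libraries. It was not called in epidermal over subcutaneous ILCs (-0.21 ± 0.38, edgeR adjusted p = 0.766). For dermal CCR6+ over dermal Sca1+ ILCs the 8 mast cell markers had a median log2 fold change of -2.85 and 1 call. This was Cpa3, a mast cell protease (-3.92 ± 0.484, edgeR adjusted p = 0.00518). That call was lost without CCR6+ replicate 2 (log2 fold change -3.47) and when only the 2 groups compared were fitted (edgeR adjusted p = 0.0644). No macrophage or simple epithelium marker was called in that comparison, with list medians of -1.80 and -1.09. The part of these cells in the Arg1 result was not tested.

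**Figure D2:**
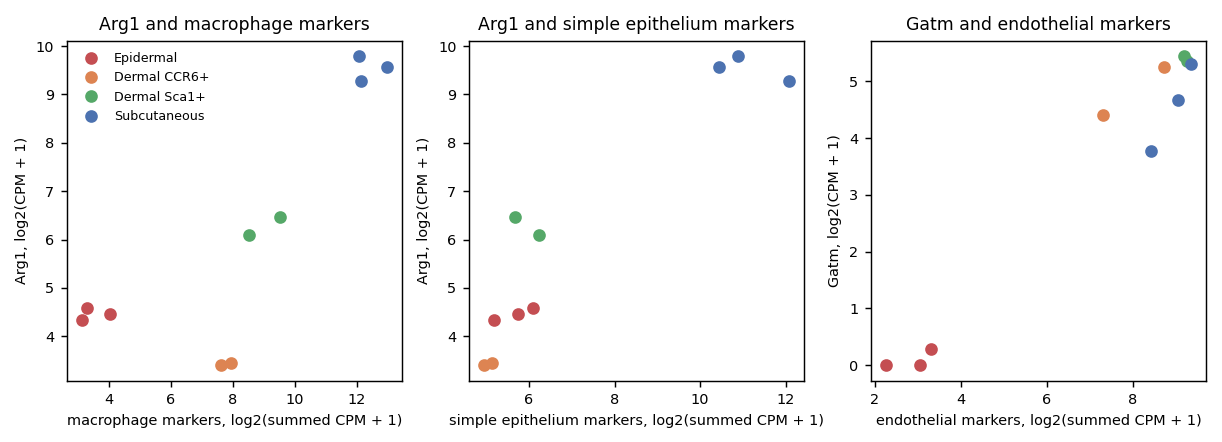
Arg1 against macrophage markers (left) and simple epithelium markers (middle), and Gatm against endothelial markers (right), each as log2(CPM + 1) with marker lists summed first. Points are the 10 libraries, coloured by group. Arg1 in the dermal CCR6+ libraries (9.57 and 9.82 CPM) sits under that of the epidermal libraries (19.3 to 22.9 CPM) although the macrophage sum is higher, and the epidermal libraries are low on both axes of the Gatm panel.

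Arg2, the mitochondrial arginase (ENSMUSG00000021125.6, chromosome 12, 79130777 to 79156301, plus strand, mm10), was found mainly in subcutaneous ILCs as well. Its levels were 0.65, 1.81 and 4.46 CPM in the epidermal libraries, 2.70 and 7.92 CPM in the dermal CCR6+ libraries, 0 and 2.23 CPM in the dermal Sca1+ libraries, and 60.8, 35.1 and 34.3 CPM in the subcutaneous libraries. All subcutaneous libraries lay above all others, while the other 3 groups overlapped or differed by a few CPM, and the dermal Sca1+ library at 0 allows up to 0.191 CPM. Epidermal ILCs were lower than subcutaneous ILCs by a log2 fold change of -4.22 ± 1.10 (edgeR adjusted p = 0.0212). That call was lost without epidermal replicate 1, epidermal replicate 2 or subcutaneous replicate 1 (edgeR adjusted p between 0.056 and 0.0744), and the fold change was -5.14 without epidermal replicate 3. Dermal Sca1+ over subcutaneous ILCs gave -5.32 ± 1.41 and dermal CCR6+ over subcutaneous ILCs -3.03 ± 1.22, neither of which was called (edgeR adjusted p = 0.0942 and 0.17). Of 21 alternatives, 5 called Arg2 in dermal Sca1+ over subcutaneous ILCs, among them DESeq2 (DESeq2 adjusted p = 8.88e-05) and the fit without Sca1+ replicate 2 (edgeR adjusted p = 0.0291), which leaves a Sca1+ library with no count. The difference between dermal CCR6+ and subcutaneous ILCs was called under 4. Exons of Arg2 overlap those of Vti1b and Gm48780 on the opposite strand, and with no strand setting stated, reads of these genes may not be told apart there. The macrophage and simple epithelium sums given above were also highest in the subcutaneous libraries. Among these, Arg2 and the simple epithelium sum (4328 CPM) peaked in replicate 1, and the macrophage sum (7974 CPM) in replicate 2. The part of these cells in the Arg2 result was not tested.

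Set side by side as TPM, the arginases were mostly Arg1. Arg1 made up 96.6%, 92.4% and 81.8% of the summed Arg1 and Arg2 TPM in epidermal libraries, 77.7% and 53.8% in dermal CCR6+ libraries, 100% and 97.4% in dermal Sca1+ libraries, and 90.8%, 95.4% and 96.1% in subcutaneous libraries. The dermal CCR6+ libraries therefore had the lowest shares, on sums of only 12.1 and 17.5 TPM. The sums were 23.3 to 26.2 TPM in epidermal, 63.9 and 91.4 TPM in dermal Sca1+, and 721 to 814 TPM in subcutaneous libraries. In TPM, Arg1 exceeded between 98.5% and 98.7% of the genes tested in subcutaneous libraries and 55.5% and 56.5% of them in dermal CCR6+ libraries.

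**Figure D3:**
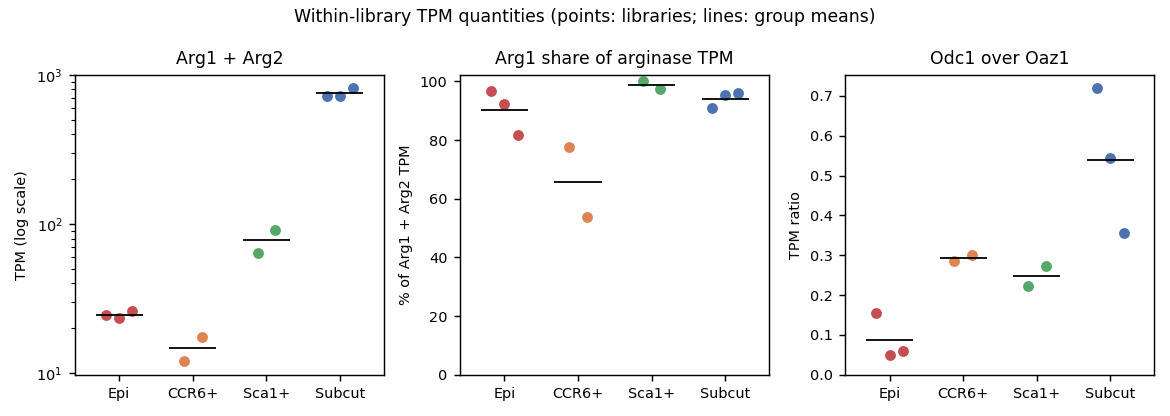
Summed Arg1 and Arg2 TPM (left, log scale), the Arg1 share of that sum in percent (middle) and the ratio of Odc1 to Oaz1 TPM (right) by group. Points are libraries and lines are group means. The arginase sum reaches 721 to 814 TPM in subcutaneous libraries, and the ratio of Odc1 to Oaz1 is at most 0.156 in the 3 epidermal libraries and between 0.355 and 0.72 in the subcutaneous ones.

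Odc1, the rate-limiting enzyme of polyamine synthesis (ENSMUSG00000011179.7, chromosome 12, 17544794 to 17551505, plus strand, mm10), was low in epidermal ILCs relative to each other group. It stood at 564, 272 and 292 CPM in the epidermal libraries, 1979 and 2156 CPM in the dermal CCR6+ libraries, 1396 and 1480 CPM in the dermal Sca1+ libraries, and 2513, 2239 and 1581 CPM in the subcutaneous libraries. The highest epidermal library was thus well under the lowest of the others. The log2 fold changes of epidermal ILCs were -2.46 ± 0.315 over dermal CCR6+ (edgeR adjusted p = 0.00108), -1.94 ± 0.312 over dermal Sca1+ (0.00265) and -2.49 ± 0.297 over subcutaneous ILCs (0.000229). Among the dermal and subcutaneous groups the log2 differences were between -0.55 and 0.52, with an SE of up to 0.345, and none was called. Odc1 has 11 near-identical sequences in the annotation, mostly processed pseudogenes, and the 9 of them in the files took between 0.529% and 5.1% of the summed counts.

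Oaz1, the antizyme that restrains Odc1 (ENSMUSG00000035242.15, chromosome 10, 80826656 to 80829290, plus strand, mm10), was the most abundant of the 9 in TPM and varied much less. Its levels were 855, 1325 and 1186 CPM in epidermal, 1608 and 1692 CPM in dermal CCR6+, 1467 and 1285 CPM in dermal Sca1+, and 833, 957 and 1055 CPM in subcutaneous libraries. Epidermal libraries overlapped with the dermal Sca1+ and the subcutaneous ones, and both CCR6+ libraries were above all 8 others. Oaz1 was called in 1 comparison, being higher in CCR6+ dermal ILCs than subcutaneous ones (log2 fold change 0.80 ± 0.209, edgeR adjusted p = 0.0454). That call held under 11 of 21 alternative settings. It was lost with RLE size factors (edgeR adjusted p = 0.0579) and without epidermal replicate 3 or any 1 of the dermal or subcutaneous libraries, with an edgeR adjusted p of up to 0.235. A microRNA gene, Mir1982, lies within its exons.

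The ratio of Odc1 to Oaz1 TPM in a library described both genes together. It was 0.156, 0.0495 and 0.059 in epidermal, 0.285 and 0.3 in dermal CCR6+, 0.223 and 0.272 in dermal Sca1+, and 0.72, 0.545 and 0.355 in subcutaneous libraries. All epidermal libraries lay under, and all subcutaneous libraries above, those of the other groups. The ratio was not tested and says nothing of protein.

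The enzymes that build on putrescine did not follow Odc1. Srm, which makes spermidine (ENSMUSG00000006442.10, chromosome 4, 148591503 to 148594993, plus strand, mm10), stood at 36.3 to 38.9 CPM in epidermal, 40.2 and 35.1 CPM in dermal CCR6+, 34.8 and 38.2 CPM in dermal Sca1+, and 30.7 to 40.2 CPM in subcutaneous libraries. The groups overlapped in all 6 comparisons, and the log2 differences were between 0.00 and 0.15, with an SE of up to 0.271. Sms, which makes spermine (ENSMUSG00000071708.11, chromosome X, 157443855 to 157492287, minus strand, mm10), stood at 65.4, 59.7 and 71.9 CPM in epidermal, 43.9 and 50.7 CPM in dermal CCR6+, 40.7 and 56.0 CPM in dermal Sca1+, and 65.8, 59.4 and 66.9 CPM in subcutaneous libraries. The epidermal and subcutaneous libraries lay above all dermal ones, but no difference was called, the largest log2 fold change being 0.47 ± 0.228 for epidermal over dermal CCR6+ ILCs (edgeR adjusted p = 0.283). With limma on TPM, Sms was called higher in epidermal than in dermal Sca1+ ILCs (0.86 and 0.89 with the pseudocounts 1 and 0.1, limma adjusted p = 0.0456 and 0.0421), where edgeR gave 0.44 ± 0.228. Sms also has 5 processed pseudogenes, 1 of them (Sms-ps) 100% identical over 1101 bases, which took between 5.66% and 23.9% of the summed counts, so its level is uncertain to that extent.

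Sat1, the acetyltransferase that starts polyamine breakdown and export (ENSMUSG00000025283.15, chromosome X, 155213132 to 155216449, minus strand, mm10), had its lowest mean in epidermal and its highest in subcutaneous ILCs. Group means were 163 ± 15.2 CPM in epidermal (SD, n = 3), 230 ± 11.2 in dermal CCR6+ (n = 2), 320 ± 22.0 in dermal Sca1+ (n = 2) and 347 ± 44.0 CPM in subcutaneous ILCs (n = 3). Epidermal libraries, at 145 to 172 CPM, lay under all others, and only the dermal Sca1+ and subcutaneous groups overlapped. The epidermal group was lower than the subcutaneous (log2 fold change -1.09 ± 0.166, edgeR adjusted p = 0.00112) and the dermal Sca1+ group (-0.98 ± 0.181, 0.00602). The call over dermal Sca1+ ILCs was lost without Sca1+ replicate 2 (edgeR adjusted p = 0.067). Neighbours in that order were not called: epidermal over dermal CCR6+ was -0.50 ± 0.182, CCR6+ over Sca1+ -0.48 ± 0.201, and Sca1+ over subcutaneous -0.12 ± 0.184.

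Slc7a1, the main arginine importer of many cells (ENSMUSG00000041313.14, chromosome 5, 148327410 to 148399904, minus strand, mm10), shared the low epidermal level of Odc1. It stood at 37.9, 55.4 and 34.0 CPM in the epidermal libraries, 176 and 153 CPM in the dermal CCR6+ libraries, 174 and 151 CPM in the dermal Sca1+ libraries, and 140, 123 and 124 CPM in the subcutaneous libraries. The epidermal libraries were all under the rest, and both dermal groups were above the subcutaneous one without a call. Epidermal ILCs were lower than dermal CCR6+ ILCs (log2 fold change -1.96 ± 0.235, edgeR adjusted p = 0.000784), dermal Sca1+ ILCs (-1.94 ± 0.235, 0.000488) and subcutaneous ILCs (-1.60 ± 0.218, 0.000548). Among the other groups the log2 differences were between 0.02 and 0.35.

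Gatm, the first enzyme of creatine synthesis (ENSMUSG00000027199.14, chromosome 2, 122594467 to 122611303, minus strand, mm10), was nearly absent from epidermal libraries. They held 4, 0 and 0 counts, or 0.217, 0 and 0 CPM, against 37.0 and 20.2 CPM in dermal CCR6+ libraries, 40.0 and 42.5 CPM in dermal Sca1+ libraries, and 12.7, 38.7 and 24.4 CPM in subcutaneous libraries. A count of 0 allows up to 0.209 CPM in epidermal replicate 2 and 0.149 CPM in replicate 3. The summed level of dermal CCR6+ libraries was 380 times the epidermal one (95% exact conditional Poisson interval 148 to 1400), that of dermal Sca1+ libraries 544 times (212 to 2000) and that of subcutaneous libraries 333 times (130 to 1220). Without epidermal replicate 1 the epidermal group had no count, and the levels were at least 330-fold, 472-fold and 289-fold higher in dermal CCR6+, dermal Sca1+ and subcutaneous ILCs, taking 3 counts over the epidermal group as the floor. The log2 fold changes of epidermal ILCs were called in all 3 comparisons, at -8.42 ± 0.912, -8.95 ± 0.922 and -8.25 ± 0.891 (edgeR adjusted p between 0.00013 and 0.000454). The other groups overlapped or differed without a call.

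Markers of stromal cells shared the pattern of Gatm. In epidermal libraries the 10 endothelial markers summed to 3.83 to 8.89 CPM with between 6 and 8 of them at 0, and the 10 fibroblast markers to 7.81 to 29.2 CPM with between 2 and 7 at 0. In the other 7 libraries the endothelial sums were 157 to 653 CPM and the fibroblast sums 1600 to 5190 CPM. In the same epidermal libraries 11 keratinocyte markers summed to between 2908 and 8146 CPM, against 1583 to 2319 CPM in the dermal and 108 to 233 CPM in the subcutaneous libraries. The lower ILC identity sum of the epidermal libraries, given above, ran with the same genes. Ptprc, Il7r and Id2 of that list were not called in epidermal over subcutaneous ILCs. The part of these marker lists in the results for Gatm, Odc1, Slc7a1 and Sat1 was not tested.

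Odc1, Slc7a1 and Gatm were the genes called lower in epidermal ILCs in all 3 comparisons, and their promoter stretches are shown because they moved together. Each line is read 5′ to 3′ on the gene's strand and ends at the base before the gene's start in GENCODE M21. The bases come from RefSeq windows on build GRCm38.p6, in which 6 of the 9 genes had an entry (Arg1, Arg2 and Srm had none). The RefSeq start lies at the next base for Slc7a1 but further downstream for Odc1 (17544873) and Gatm (122611277), and the bases between are not shown. The lines span chr12:17544623-17544793 (plus strand) for Odc1, chr5:148399905-148400154 (minus strand) for Slc7a1 and chr2:122611304-122611527 (minus strand) for Gatm. Capitals mark the GC box GGGCGG or its reverse complement.
Odc1: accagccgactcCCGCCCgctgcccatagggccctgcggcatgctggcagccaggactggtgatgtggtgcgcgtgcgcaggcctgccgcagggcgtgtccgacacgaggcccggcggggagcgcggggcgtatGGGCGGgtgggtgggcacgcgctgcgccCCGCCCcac
Slc7a1: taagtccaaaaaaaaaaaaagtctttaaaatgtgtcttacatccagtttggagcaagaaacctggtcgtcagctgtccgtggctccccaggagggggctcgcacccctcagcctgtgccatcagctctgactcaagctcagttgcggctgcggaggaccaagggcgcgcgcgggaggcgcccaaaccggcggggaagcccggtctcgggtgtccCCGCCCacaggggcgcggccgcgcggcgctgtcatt
Gatm: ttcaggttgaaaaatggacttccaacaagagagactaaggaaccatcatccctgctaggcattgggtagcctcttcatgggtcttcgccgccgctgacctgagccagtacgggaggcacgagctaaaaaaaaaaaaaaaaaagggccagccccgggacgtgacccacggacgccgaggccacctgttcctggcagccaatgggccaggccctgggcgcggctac
The windows were searched on both strands for the GC box GGGCGG and the E-box CACGTG, the motif bound by Myc, a known activator of Odc1. Odc1 held 3 GC boxes in 171 bases, Slc7a1 held 1 in 250 bases and Gatm none in 224 bases. Among 32851 RefSeq promoter windows, 19.6% held a GC box in their first 171 bases, 32.7% in 250 and 29.1% in 224. None of the 3 held the E-box, which was present in 3.41%, 6.02% and 5.13% of windows of these lengths. A match or its lack describes only these letters, and bases downstream of the gene's start were not searched. The base composition differed, with a GC content of 77.2% in the Odc1 window, 62.4% in that of Slc7a1 and 57.6% in that of Gatm.

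By number of calls, epidermal ILCs stood furthest from subcutaneous ILCs, a comparison of 3 libraries with 3, whereas each dermal group has 2. In epidermal over subcutaneous ILCs, 6 of the 9 genes were lower and none higher, where 13.3% of all genes tested were lower and 6.87% higher (20.2% in all). The median log2 fold change of the 9 genes was -1.60, beside -0.02 over all genes. Libraries did not overlap for 6 of the 9, beside 39.7% of all genes. Against dermal Sca1+ ILCs, 5 of the 9 were lower in epidermal ILCs (Arg1, Odc1, Sat1, Slc7a1 and Gatm) and none higher, beside 8.66% lower and 2.75% higher over all genes, with medians of -0.98 and 0.00. Here 6 of the 9 did not overlap, beside 40.9% of all genes. Against dermal CCR6+ ILCs, 3 were lower (Odc1, Slc7a1 and Gatm) and Arg1 was higher, beside 5.19% lower and 0.987% higher over all genes, with medians of -0.56 and 0.00, and 7 of the 9 did not overlap, beside 34.3%. These comparisons share the epidermal libraries. The 9 genes were chosen with earlier results of these data known, so the shares over all genes here and below describe them without a test.

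Between groups of the deeper layers few of the genes were called. In dermal CCR6+ over dermal Sca1+ ILCs, Arg1 was lower and no other gene of the 9 was called, where 0.346% of all genes tested were lower and 0.296% higher. In dermal Sca1+ over subcutaneous ILCs, Arg1 was again lower and alone, where 0.993% of all genes tested were lower and 1.21% higher. In dermal CCR6+ over subcutaneous ILCs, Arg1 was lower and Oaz1 higher, where 3.71% of all genes tested were lower and 3.75% higher. The median log2 fold changes of the 9 genes in these comparisons were 0.02, -0.12 and -0.03, beside -0.01, -0.03 and -0.08 over all genes. Libraries did not overlap for 6, 7 and 6 of the 9, beside 39.4%, 34% and 43.3% of all genes.

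**Figure D4:**
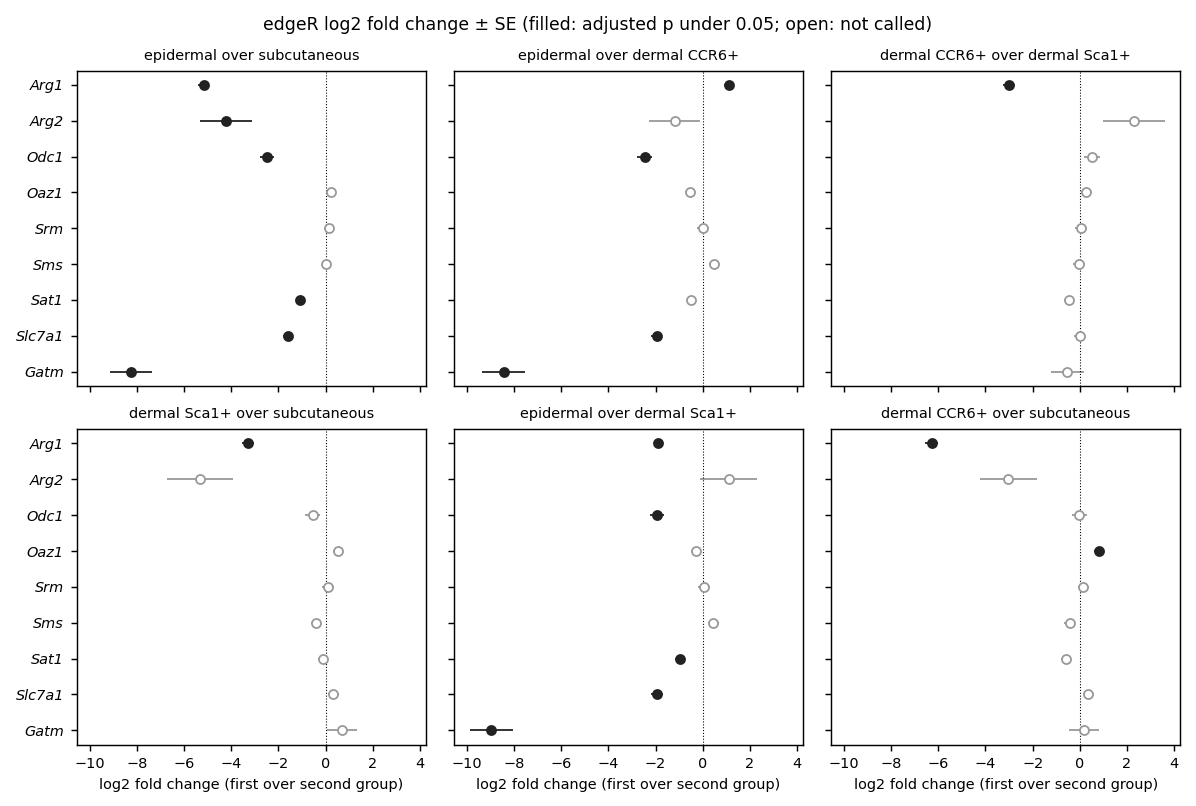
Log2 fold change ± SE of the 9 genes (rows) in the 6 comparisons (panels), as the first group named over the second. Filled points were called at an edgeR adjusted p under 0.05 and open points were not. In epidermal over subcutaneous ILCs 6 points are filled and lie below 0, while in dermal CCR6+ over dermal Sca1+ ILCs the only filled point is Arg1 at -3.00.

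Beyond the 9 genes, 56 further genes of the pathway were listed, also with earlier results of these data known. Of these, 55 were in the files and 49 were tested (Pycr3 was not analysed here). In epidermal over subcutaneous ILCs 4 of the 49 were higher and 10 lower, in epidermal over dermal Sca1+ ILCs 1 was higher and 8 lower, and in epidermal over dermal CCR6+ ILCs none was higher and 4 were lower. In dermal CCR6+ over dermal Sca1+ ILCs and in dermal Sca1+ over subcutaneous ILCs 1 gene each was higher and none lower, and in dermal CCR6+ over subcutaneous ILCs 6 were higher and 1 lower. As shares of those tested these were 28.6%, 18.4%, 8.16%, 2.04%, 2.04% and 14.3%, beside 20.2%, 11.4%, 6.18%, 0.642%, 2.2% and 7.46% of all genes. Single libraries moved some of these counts. In epidermal over dermal Sca1+ ILCs the 9 calls became 5 without epidermal replicate 2, epidermal replicate 3 or Sca1+ replicate 1, and 4 without Sca1+ replicate 2. The 7 calls of dermal CCR6+ over subcutaneous ILCs became 2 without CCR6+ replicate 2 and 4 without subcutaneous replicate 3. In dermal Sca1+ over subcutaneous ILCs none was left without Sca1+ replicate 1.

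Of 11 further transport genes, 5 were lower and 1 higher in epidermal over subcutaneous ILCs, beside 13.3% lower and 6.87% higher over all genes. Over either dermal group 2 were lower and none higher. Over all genes 5.19% were lower and 0.987% higher against dermal CCR6+, and 8.66% and 2.75% against dermal Sca1+ ILCs. In dermal CCR6+ over subcutaneous ILCs 2 of the 11 were higher and 1 lower, beside 3.75% and 3.71% over all genes. Slc3a2, the heavy chain that carries several amino acid transporters to the surface, was at 167 ± 38.9 CPM in epidermal (SD, n = 3), 758 ± 37.2 in dermal CCR6+ (n = 2), 750 ± 58.1 in dermal Sca1+ (n = 2) and 585 ± 72.5 CPM in subcutaneous ILCs (n = 3). Its partner Slc7a5, a carrier of large neutral amino acids, was at 49.1, 47.3 and 50.1 CPM in epidermal, 321 and 236 CPM in dermal CCR6+, 181 and 189 CPM in dermal Sca1+, and 117, 85.2 and 89.0 CPM in subcutaneous libraries. Neither gene's epidermal libraries overlapped with those of another group. Both were called lower in epidermal ILCs in all 3 comparisons, with log2 fold changes over dermal CCR6+ ILCs of -2.18 ± 0.215 for Slc3a2 and -2.51 ± 0.213 for Slc7a5 (edgeR adjusted p = 0.000277 and 0.000121). Slc7a2, another importer of arginine, was at 0.976, 0.766 and 0 CPM in epidermal libraries against 117, 36.1 and 34.0 CPM in subcutaneous libraries, a log2 fold change of -6.75 ± 1.42 (edgeR adjusted p = 0.00732) that lay between -7.42 without epidermal replicate 1 and -5.91 without subcutaneous replicate 1. In the same comparison Slc7a7, an exporter of cationic amino acids, was lower by -4.30 ± 1.31 (edgeR adjusted p = 0.0422), a call lost without epidermal replicate 1 or 3 or any 1 subcutaneous library (edgeR adjusted p of up to 0.117), with a value of -5.78 to -3.69 when single libraries were left out. Between groups, Slc7a2 was highest where the macrophage and simple epithelium sums given above were highest. Among subcutaneous libraries it peaked in replicate 1, as the simple epithelium sum did, whereas the macrophage sum peaked in replicate 2. The part of these sums was not tested. Slc7a7 followed them less closely between groups. It stood at 8.92 CPM in dermal CCR6+ replicate 1, against 7.03, 16.6 and 8.33 CPM in the subcutaneous libraries. Slc7a6, a partner of Slc3a2 that was named after its values were seen, was the higher one in epidermal over subcutaneous ILCs. It was at 57.1 ± 13.9 CPM in epidermal against 22.3 ± 4.95 CPM in subcutaneous ILCs (SD, n = 3 each; 1.35 ± 0.266, edgeR adjusted p = 0.00513), a call kept under 21 of 21 alternatives. In dermal CCR6+ ILCs (55.5 ± 1.29 CPM, n = 2) Slc7a6 was also called higher than in subcutaneous ILCs (log2 fold change 1.31, edgeR adjusted p = 0.0209). That call held under 15 of 21 alternatives. Slc7a5 was called higher in the same comparison (1.52, edgeR adjusted p = 0.00194), under 21 of 21 alternatives. Atp13a3, a polyamine transporter, was lower in dermal CCR6+ (54.9 ± 6.04 CPM, n = 2) than in subcutaneous ILCs (171 ± 48.1 CPM, n = 3) by -1.64 ± 0.419 (edgeR adjusted p = 0.0411). That call held under 12 of 21 alternatives and was lost without either CCR6+ library, Sca1+ replicate 1 or any 1 subcutaneous library. Leaving out single libraries gave log2 fold changes of -1.80 to -1.39. In epidermal ILCs (62.5 ± 33.3 CPM, n = 3) Atp13a3 was also called lower than in subcutaneous ILCs, by -1.45 ± 0.36 (edgeR adjusted p = 0.017). The epidermal call held under 16 of 21 alternatives and was lost with limma and without epidermal replicate 2 or 3 or subcutaneous replicate 1.

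Genes that supply the aminopropyl donor moved with Odc1. Amd1, which decarboxylates S-adenosylmethionine for Srm and Sms, was at 121 ± 10.9 CPM in epidermal (SD, n = 3), 304 ± 9.15 in dermal CCR6+ (n = 2), 292 ± 25.7 in dermal Sca1+ (n = 2) and 221 ± 40.5 CPM in subcutaneous ILCs (n = 3). It was called lower in epidermal ILCs in all 3 comparisons, by -1.33 ± 0.2 over dermal CCR6+, -1.27 ± 0.2 over dermal Sca1+ and -0.86 ± 0.182 over subcutaneous ILCs (edgeR adjusted p = 0.00287, 0.00227 and 0.00759). Reads may be shared with its close paralog Amd2, listed at 0.868 to 2.78 CPM on average. Mat2a, which makes S-adenosylmethionine, averaged 224 ± 39.6 CPM in epidermal, 605 ± 176 in dermal CCR6+, 521 ± 0.14 in dermal Sca1+ and 440 ± 53.1 CPM in subcutaneous ILCs (SD) and was also called lower in epidermal ILCs in all 3 comparisons, by -1.43 ± 0.226 over dermal CCR6+ ILCs (edgeR adjusted p = 0.00377), -1.22 ± 0.226 over dermal Sca1+ ILCs (0.00608) and -0.97 ± 0.207 over subcutaneous ILCs (0.00796). The other 6 genes of that list of 8 were not called in any comparison.

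**Figure D5:**
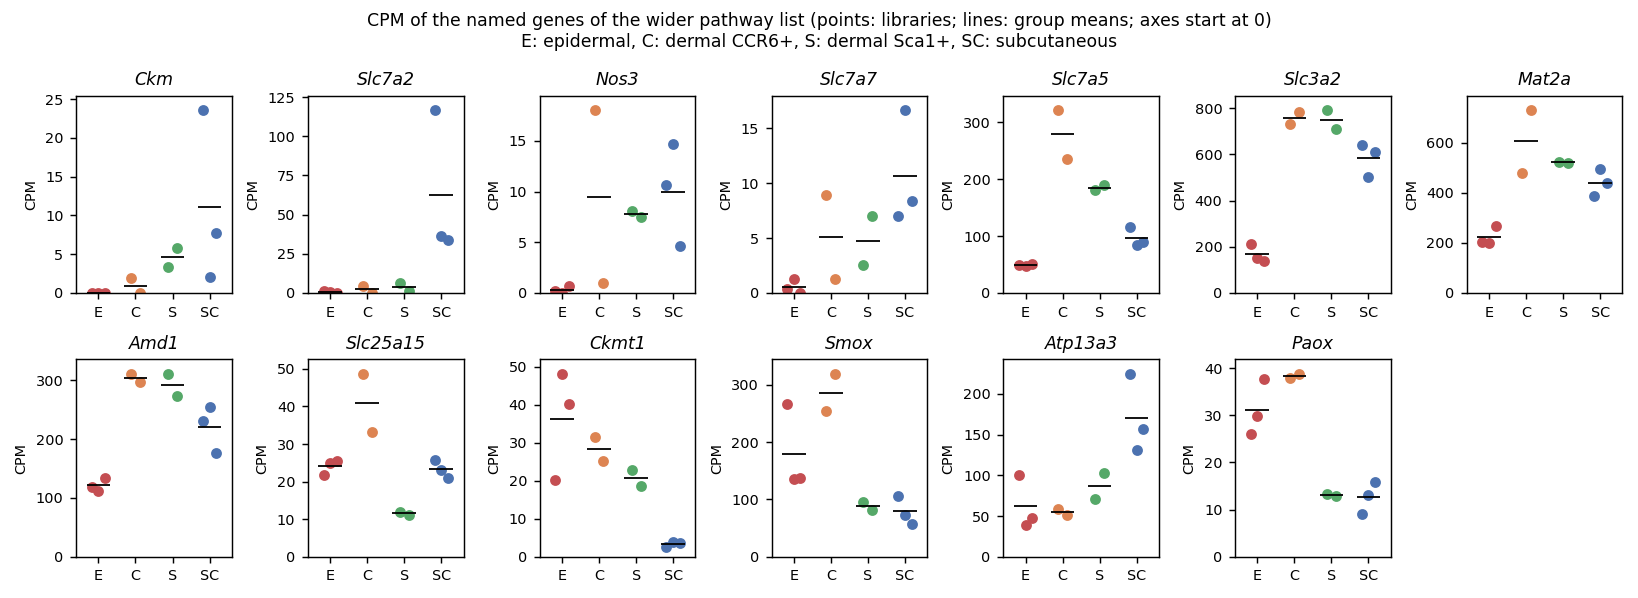
CPM (y axes, from 0) of the 13 further pathway genes named by rule, in epidermal (E), dermal CCR6+ (C), dermal Sca1+ (S) and subcutaneous (SC) libraries. Points are libraries and lines are group means. Slc7a5, Slc3a2, Mat2a and Amd1 are lowest in the epidermal libraries, whereas Smox and Paox are higher in epidermal and dermal CCR6+ than in dermal Sca1+ and subcutaneous libraries.

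Smox and Paox, of polyamine oxidation, were not low in epidermal ILCs. Smox, which oxidises spermine, was at 266, 137 and 138 CPM in epidermal, 254 and 319 CPM in dermal CCR6+, 94.8 and 81.3 CPM in dermal Sca1+, and 106, 73.7 and 57.5 CPM in subcutaneous libraries. Paox, which oxidises acetylated polyamines, was at 31.2 ± 5.92 CPM in epidermal (SD, n = 3), 38.3 ± 0.667 in dermal CCR6+ (n = 2), 13.1 ± 0.234 in dermal Sca1+ (n = 2) and 12.7 ± 3.50 CPM in subcutaneous ILCs (n = 3). For both genes each epidermal and CCR6+ library was above each Sca1+ and subcutaneous library. Smox was called higher in epidermal (log2 fold change 1.19 ± 0.31, edgeR adjusted p = 0.0218) and in dermal CCR6+ (1.86 ± 0.338, 0.00881) than in subcutaneous ILCs. Paox was called higher in the same comparisons (1.30 ± 0.306 with an edgeR adjusted p of 0.0134 and 1.60 ± 0.333 with 0.0165). It was also called in epidermal over dermal Sca1+ ILCs (1.26 ± 0.352, edgeR adjusted p = 0.0449), a call that held under 11 of 21 alternatives and was lost without any 1 dermal library, among others (edgeR adjusted p of up to 0.177). In epidermal over subcutaneous ILCs the Smox call was lost without epidermal replicate 1 (log2 fold change 0.81, edgeR adjusted p = 0.054) or subcutaneous replicate 2 or 3 (0.0733 and 0.0776), and the Paox call without epidermal replicate 3 (0.0594). In dermal CCR6+ over subcutaneous ILCs the calls were lost without CCR6+ replicate 2 for Smox (edgeR adjusted p = 0.0735) and without either CCR6+ replicate for Paox (0.0625 and 0.104).

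Creatine and nitric oxide genes differed in direction. Ckmt1, a mitochondrial creatine kinase, was at 36.2 ± 14.3 CPM in epidermal (SD, n = 3), 28.5 ± 4.41 in dermal CCR6+ (n = 2), 20.8 ± 3.04 in dermal Sca1+ (n = 2) and 3.38 ± 0.63 CPM in subcutaneous ILCs (n = 3). It was higher than in subcutaneous ILCs in all 3 other groups (log2 fold changes 3.42 ± 0.401, 3.07 ± 0.416 and 2.62 ± 0.413, with edgeR adjusted p of 0.000207, 0.00177 and 0.00932), the last of which was lost without dermal Sca1+ replicate 1 (0.0588). The keratinocyte sums given above were likewise highest in epidermal and lowest in subcutaneous libraries. Among epidermal libraries, replicate 1 was lowest in Ckmt1 (20.3 CPM) and in that sum (2908 CPM). Among subcutaneous libraries, replicate 1 was lowest in Ckmt1 (2.68 CPM) but highest in that sum (233 CPM). The part of keratinocyte markers in the Ckmt1 result was not tested. Ckm, the creatine kinase of muscle, had 1 count in the epidermal libraries together. The level of the subcutaneous libraries was 605 times as high (95% exact conditional Poisson interval 108 to 24000), with 352 of its 479 counts in replicate 1. Dermal Sca1+ libraries were at 234 times the epidermal level (41.3 to 9330) and dermal CCR6+ libraries at 51.7 times (8.6 to 2110), with all 30 CCR6+ counts in replicate 1. Ckm was called lower in epidermal than in subcutaneous ILCs (edgeR adjusted p = 0.00895). It was also called lower than in dermal Sca1+ ILCs (edgeR adjusted p = 0.0283), under 15 of 21 alternatives. Nos3, the endothelial nitric oxide synthase, averaged 0.287 ± 0.328 CPM in epidermal ILCs (SD, n = 3), against 18.04 and 0.99 CPM in the dermal CCR6+ libraries, 7.78 ± 0.421 CPM in dermal Sca1+ (n = 2) and 9.97 ± 5.07 CPM in subcutaneous ILCs (n = 3). It was not called over dermal CCR6+ ILCs (-4.97 ± 1.33, edgeR adjusted p = 0.0557), where 4 of 21 alternatives called it. Its calls over dermal Sca1+ and subcutaneous ILCs (edgeR adjusted p = 0.046 and 0.02) held under 9 and 18 of 21 alternatives. The dermal Sca1+ call was lost without any 1 library other than the dermal CCR6+ ones (edgeR adjusted p of up to 0.113), and the subcutaneous call without epidermal replicate 1 (0.0619) or subcutaneous replicate 2 (0.0551). Leaving out single libraries gave log2 fold changes of -5.97 to -4.13 over dermal Sca1+ and -6.33 to -4.49 over subcutaneous ILCs. It moved with the endothelial markers given above, whose part was not tested. Slc25a15, the mitochondrial ornithine carrier, was at 48.6 and 33.3 CPM in dermal CCR6+ against 12.01 and 11.1 CPM in dermal Sca1+ libraries (1.83 ± 0.339, edgeR adjusted p = 0.045). That call held under 7 of 21 alternatives and was lost without any 1 library other than epidermal replicate 1 (edgeR adjusted p of up to 0.215).

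Of the enzymes that make arginine, Ass1 was at 72.8 ± 7.74 CPM in epidermal (SD, n = 3), 123 ± 21.6 in dermal CCR6+ (n = 2), 97.3 ± 20.3 in dermal Sca1+ (n = 2) and 65.5 ± 10.1 CPM in subcutaneous ILCs (n = 3). It was called once, in dermal CCR6+ over subcutaneous ILCs (0.91 ± 0.232, edgeR adjusted p = 0.0402), and was named after its values were seen. That call held under 12 of 21 alternatives and was lost without epidermal replicate 3, either dermal CCR6+ library or any 1 subcutaneous library (edgeR adjusted p of up to 0.307). Asl was called in none of the 6 comparisons. Cps1 and Nags of the urea cycle were at 0 in all libraries and Otc was too low to be tested. None of the 4 hypusine genes, which include the spermidine-modified translation factor Eif5a at group means of 1046 to 1556 CPM, was called in a comparison.

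Genes most like each member were ranked by Pearson r of log2 CPM over the 10 libraries, which share depth and group, so r is a description. For Arg1 they were Ebi3 (0.984), Lpcat2 (0.975), Csf2 (0.967), Ythdc1 (0.959) and Wfdc2 (0.958). Csf2, which encodes the cytokine GM-CSF, had mean levels of 52.2 CPM in epidermal, 38.9 in dermal CCR6+, 298 in dermal Sca1+ and 971 CPM in subcutaneous ILCs, the same order as Arg1. Ebi3, Lpcat2 and Ythdc1 had that order too. Wfdc2 averaged 0 CPM in epidermal and in dermal CCR6+, 0.944 in dermal Sca1+ and 110 CPM in subcutaneous ILCs. Like the simple epithelium sums, it was high only in the subcutaneous group. For Odc1 they were Gprc5a (0.991), Vps37b (0.989) and Snx18 (0.986), for Slc7a1 Cdkn1a (0.99), Sde2 (0.988) and Ramp3 (0.983), and for Sat1 Abca1 (0.975), Plin2 (0.972) and Rab20 (0.971). For Arg2 they were Cd164 (0.925), Dpm1 (0.911) and Tmed3 (0.91). For Gatm they were Mfap2 (0.997), Mmrn2 (0.995) and Cldn5 (0.99), the last of which is one of the endothelial markers. Among the 9 genes themselves, Slc7a1 and Gatm (0.949), Odc1 and Gatm (0.937) and Odc1 and Slc7a1 (0.886) had the highest r, while Oaz1 and Sms had the lowest (-0.731).

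The deposited names also number the libraries, in runs from 1 to 4, from 5 to 8 and from 17 to 20, and each run holds at most 1 library of a group. The labels do not say what the numbers mean. Within runs, the log2 ratio of epidermal over subcutaneous CPM, with 0.5 added to each, was -4.98 to -5.36 for Arg1, -2.81 to -5.74 for Arg2, -2.16 to -3.04 for Odc1, -0.88 to -1.20 for Sat1, -1.14 to -1.87 for Slc7a1 and -4.20 to -6.29 for Gatm over 3 runs. For Arg1 it was -2.72 and -3.13 in dermal CCR6+ over Sca1+ and -3.33 and -3.49 in dermal Sca1+ over subcutaneous libraries over 2 runs. These ratios had the direction of the pooled fold changes in every run, and they have no test.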

How the data were processed

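RNA of sorted skin ILCs was prepared with a low-input SMART-type kit and Nextera XT, per the labels' protocols. Reads were processed with Trimmomatic, STAR and RSEM on mm10, per the submitters' processing notes; their versions, settings and strand use are not given in these sources. The authors deposited, per the file headers, RSEM expected counts, which are estimated counts per gene, and TPM per gene and library; the deposited FPKM was not used. Groups came from sample titles, since the cell type label of some dermal libraries names no marker. The design text speaks of triplicates, and 2 libraries of each dermal group were analysed here.

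Of the 47643 gene IDs, 47224 matched a symbol of GENCODE M21. Rounding was applied to the expected counts (7.2% to 8.39% were not whole numbers, by library), which were tested in R 4.3.3 with edgeR 4.0.16 (TMM, filterByExpr with a count minimum of 10, quasi-likelihood test, Benjamini-Hochberg adjustment) in 1 model of 4 groups and 10 libraries with 6 residual degrees of freedom. SE is the log2 fold change over the square root of F. Alternatives used DESeq2 1.42.0, limma 3.58.1 on log2(TPM + 1) and log2(TPM + 0.1), RLE factors, other filters, fewer groups, a replicate block and each library left out. Near-identical copies were searched in the transcripts at 95% identity over at least 300 bases; adding their counts, and recomputing the wider pathway genes and some markers, were chosen after seeing the data. The fit was also run on simulated counts, drawn with a smaller spread than these data have (common BCV 0.62). Changes were set there only in genes above a count limit. That run therefore does not show how the fit performs at the spread of these data or for low genes.

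The 9 genes and the lists were chosen with earlier results of these data known. Further pathway genes were named per comparison as the up to 4 called genes of largest change whose higher group averaged 5 CPM or more, and similar genes by highest r among genes averaging 20 CPM or more in 1 group, leaving out predicted, mitochondrial, ribosomal protein and receptor segment genes.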

Additional observations from a re-analysis of the deposited data

How the results depend on the processing

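For the 9 genes, 498 called results under the alternatives kept their call, 21 lost it, 753 uncalled ones stayed uncalled, 18 gained a call and 24 changed sign, all 24 uncalled as reported. The cause of these changes was not tested. Signs changed for Srm in epidermal over dermal CCR6+ (5 CPM filter -0.0106, replicate block by title number -0.0722) and over dermal Sca1+ ILCs (the same block -0.0279), for Sms in dermal CCR6+ over dermal Sca1+ ILCs (limma 0.15 and 0.16), and for Odc1 in dermal CCR6+ over subcutaneous ILCs (limma 0.0372 and 0.0373, replicate block by run of number 0.22). Leaving out 1 library at a time gave log2 ranges across 0 for Sms in epidermal over subcutaneous (-0.0349 to 0.0994) and dermal CCR6+ over dermal Sca1+ ILCs (-0.24 to 0.25), for Srm in epidermal over dermal CCR6+ (-0.0946 to 0.1067), dermal CCR6+ over dermal Sca1+ (-0.0575 to 0.1443) and epidermal over dermal Sca1+ ILCs (-0.016 to 0.1445), for Slc7a1 in dermal CCR6+ over dermal Sca1+ ILCs (-0.0885 to 0.1279), and for Odc1 (-0.20 to 0.11) and Gatm (-0.32 to 0.62) in dermal CCR6+ over subcutaneous ILCs. Genes called then numbered 35 to 155 in dermal CCR6+ over dermal Sca1+, 157 to 420 in dermal Sca1+ over subcutaneous, 1192 to 1865 in epidermal over dermal Sca1+ and 435 to 1372 in dermal CCR6+ over subcutaneous ILCs. Of the 9 genes, 1 to 2 were called in dermal Sca1+ over subcutaneous and 1 to 2 in dermal CCR6+ over subcutaneous ILCs.

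Genes called numbered 2001 (DESeq2), 2028 (no filter beyond 1 count) and 618 (only the 2 groups) in epidermal over dermal CCR6+ ILCs, and 561, 647 and 47 in dermal CCR6+ over dermal Sca1+ ILCs (64 with the title block). In dermal Sca1+ over subcutaneous ILCs they numbered 1193, 1328 and 560 (limma 891 and 743, title block 203), with 2 of the 9 genes called by DESeq2 or with no filter and 3 by limma. In epidermal over dermal Sca1+ ILCs they were 2967 (DESeq2) and 2918 (no filter). In dermal CCR6+ over subcutaneous ILCs they were 2345, limma 1978 and 1899, and 2292 with no filter, with 4 of the 9 called by DESeq2 and 1 with RLE factors or the title block. Over all 4 groups they were 4390 (DESeq2) and 4925 (no filter).

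The share of calls that were higher in the first group named moved by over 10 percentage points in epidermal over subcutaneous (limma 47.9% and 46.7%, against 34.1%), epidermal over dermal CCR6+ (DESeq2 29.2%, limma 35.6% and 31.7%, against 16%), dermal Sca1+ over subcutaneous (DESeq2 40.7%, limma 40% and 42.4%, no filter 39.4%, only the 2 groups 35.7%, against 54.9%), epidermal over dermal Sca1+ (limma 39.1% and 38.4%, against 24.1%) and dermal CCR6+ over subcutaneous ILCs (only the 2 groups 38.7%, against 50.3%). In dermal CCR6+ over dermal Sca1+ ILCs it was 24.5% without CCR6+ replicate 1, 34.9% without Sca1+ replicate 1 and 58.2% without subcutaneous replicate 2, against 46.2%. Over all genes the median log2 value moved to -0.107 with RLE factors or DESeq2 and -0.156 with no filter in dermal CCR6+ over subcutaneous ILCs, and to -0.27 without CCR6+ replicate 1, against -0.077. In dermal Sca1+ over subcutaneous ILCs it was -0.119 and -0.129 without Sca1+ replicate 1 and 2, against -0.025, and in epidermal over subcutaneous ILCs 0.106 by limma with 0.1 added, against -0.022. Further pathway genes called in epidermal over dermal CCR6+ ILCs numbered 8 by DESeq2 and 10 with no filter, against 4.

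Deviations of libraries with the same title number from their group means had r of -0.038 to 0.114 (13 pairs, 1 over 0.1). Libraries with different title numbers had r of -0.101 to 0.088 (24 pairs). In a group of 2 libraries the deviations mirror each other, so the pairs are not independent and cannot decide on a pairing. The replicate block is given only as an alternative: by title number it left 60 of 63 results of the 9 genes as they were, and by run of number 62. Calls lost with the title block (edgeR adjusted p) were those of Oaz1 (0.0623), Ass1 (0.0956), Slc7a6 (0.0679) and Atp13a3 (0.0511) in dermal CCR6+ over subcutaneous, Slc25a15 (0.123) in dermal CCR6+ over dermal Sca1+, Slc7a7 (0.0551) in epidermal over subcutaneous, and Nos3 (0.121) and Paox (0.103) in epidermal over dermal Sca1+ ILCs. With the block by run these were Ass1 (0.077), Slc7a6 (0.0526), Slc25a15 (0.077), and Nos3 in epidermal over subcutaneous (0.0616) and dermal Sca1+ ILCs (0.11). With 2 libraries per dermal group and a common BCV of 0.62, the precision of low genes such as Arg2 is limited.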
